A study of Mus musculus with 9 samples.

Results

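The forkhead transcription factors were taken as the genes whose name in the deposited count files had the form Fox, a letter from a to s, a number and at most 1 further letter. The rule found 34 genes among the 32137 genes listed. Of the 34, 25 passed the filter on low counts and were tested among 17011 genes, and the other 9 had at most 9 counts in any library. The rule itself uses names and no measured value.

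RNA was sequenced from 9 samples of cells sorted out of mouse bile duct organoids, all grown from a single male animal of mixed background with the genotype Axin2CreERT2+/-; R26-LSL-tdTom+/-. In these cells a tamoxifen-activated Cre recombinase under control of Axin2, a Wnt target gene, switches on the fluorescent protein tdTomato, so that only cells with Axin2 activity during tamoxifen exposure are marked. Expansion took 2 to 4 days and differentiation 11 days, and every culture received 3 uM dexamethasone and 500 nM 4-hydroxytamoxifen for the last 24 h. The untreated group held tdTomato-negative cells of organoids that got no R-spondin 1 (Rspo1), a secreted enhancer of Wnt signalling. The Rspo1-negative and Rspo1-positive groups held tdTomato-negative and tdTomato-positive cells of organoids given 100 ng/ml Rspo1 in those 24 h. Each group had 3 libraries, 1 each from passages 5, 6 and 10. There was no group of tdTomato-positive untreated cells, so Rspo1 and the sort gate cannot be told apart between Rspo1-positive and untreated cells. Because 1 animal gave all libraries, no p-value measures the spread between animals. In group comparisons the p-values rest on the spread between cultures of the 3 passages. No passage had a repeated library of any group, so p-values between passages rest on how the passage difference varied over the 3 groups.

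Forkhead proteins bind DNA through a winged-helix domain, in which 1 helix reads the bases of the site. The family holds pioneer factors that open liver chromatin (FOXA), the activator of genes for mitosis (FOXM1), the master regulator of motile cilia (FOXJ1), factors held in the cytoplasm by insulin and AKT signalling (FOXO) and mostly repressive factors (FOXP, FOXK). In liver, FOXA proteins act with hepatocyte nuclear factors from early development, and FOXM1 is known for hepatocyte division after injury.

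The family is recognised by the codons of its DNA-reading helix, and the 7 members shown here differ there in base composition as well as in sequence. In the GENCODE mouse release M21 transcripts, a 27-base coding stretch of this helix was found in all 34 genes by a pattern written to cover the family. It was present in 42 of 21901 protein-coding genes searched, 41 of them named Fox. The stretches of 7 members are shown 5′ to 3′ on the coding strand, with capitals at each base that differs from Foxj1, the forkhead gene with the highest mean level here.
Foxj1: tggcagaattccatccgccacaacctg
Foxm1: tggAagaaCtcTatTcgTcacaacctT
Foxq1: tggcGCaaCtccGtGcgccacaacctC
Foxc2: tggcagaaCAGcatccgccacaacctg
Foxn3: tggAagaaCtcAGtGAgAcacaacTtg
Foxn2: tggAagaattcTGtTcgGcaTaaTctA
Foxj3: tggAagaattcTatAcgAcaTaaTctg
On GRCm38 the Foxq1 stretch lies in 1 exon at chr13:31559391-31559417 (plus strand) and that of Foxc2 at chr8:121116957-121116983 (plus). The Foxm1 stretch is split over 2 exons between chr6:128369480 and 128370977 (plus), and that of Foxj1 over 2 exons between chr11:116332457 and 116334047 (minus). In the other 6 shown, 3 to 8 of the 27 bases differed from Foxj1. G and C made up 59.3% of the stretch in Foxc2, 66.7% in Foxq1 and 55.6% in Foxj1. They made up 33.3% in Foxj3, 37.0% in Foxn2, 40.7% in Foxm1 and 44.4% in Foxn3. These 27 bases do not stand for the whole transcript, which has 54.6% GC in Foxm1.

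Total counts per library ranged from 23423979 to 37351448, and the 34 forkhead genes together took 711 to 976 unscaled CPM. The 8 duct markers, all measured and including Krt19, Krt7, Epcam, Sox9, Spp1, Cdh1 and Cldn4, summed to 8302 to 10235 CPM in untreated, 8485 to 10327 in Rspo1-negative and 7197 to 7419 in Rspo1-positive cells. CPM, counts relative to library size, are scaled between libraries unless called unscaled. Hepatocyte markers summed to 168.5 to 549.9 CPM over the 9 libraries and consisted mostly of Ttr. Albumin stood at 3.91 to 15.3 CPM, and Cps1 and Cyp3a11 had 1 count each in all. Mesenchymal markers summed to at most 1.3 CPM and endothelial markers to at most 0.308 CPM. Lum and Cdh5 had no count, and the T cell marker Cd3e and the leukocyte marker Ptprc had at most 5 counts per library. Immune markers summed to 14.4 to 29.2 CPM, nearly all from Cd68 and Itgam. A single gene, CT010467.1, took 8.89% and 7.20% of counts in the passage 6 Rspo1-positive and Rspo1-negative libraries and 4.35% in the passage 10 Rspo1-positive library. The Rspo1-negative libraries stand apart in another way: across 17001 genes their fold change against untreated cells followed transcript GC content, with a rank correlation of 0.496 (-0.504 between the gates and -0.0134 for Rspo1-positive against untreated cells). Genes are not independent replicates. For this reason values with an offset for GC content and length are given below wherever they change a call. The part of cell composition in the results was not tested.

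Levels of different genes can be compared only per length, on the deposited FPKM scale. By the mean of 9 libraries the order was Foxj1 (32.2 FPKM), Foxa2 (31.1), Foxq1 (25.3), Foxp4 (25.3), Foxo3 (14.5), Foxk2 (14.3), Foxo4 (11.3) and Foxk1 (8.94). The first 4 do not differ beyond their spread, since Foxj1 ranged from 8.66 to 68.2 FPKM, Foxa2 from 23.7 to 38.8, Foxq1 from 15.9 to 46.2 and Foxp4 from 17.3 to 30.6. Foxo3, Foxk2 and Foxo4 overlapped one another as well. Foxp1 followed at 7.99 FPKM, Foxj3 at 5.93, Foxa1 at 4.53 and Foxm1 at 3.88. Foxc2 stood at 0.842 FPKM, and Foxc1, Foxf2, Foxn4 and Foxp2 were lower still. Foxd2, Foxd3, Foxe1, Foxf1, Foxh1, Foxi1, Foxl1, Foxn1 and Foxr2 were not tested. Foxn1, the thymus epithelium factor, reached the highest count of these, 9 in the passage 5 Rspo1-positive library.

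**Figure D1:**
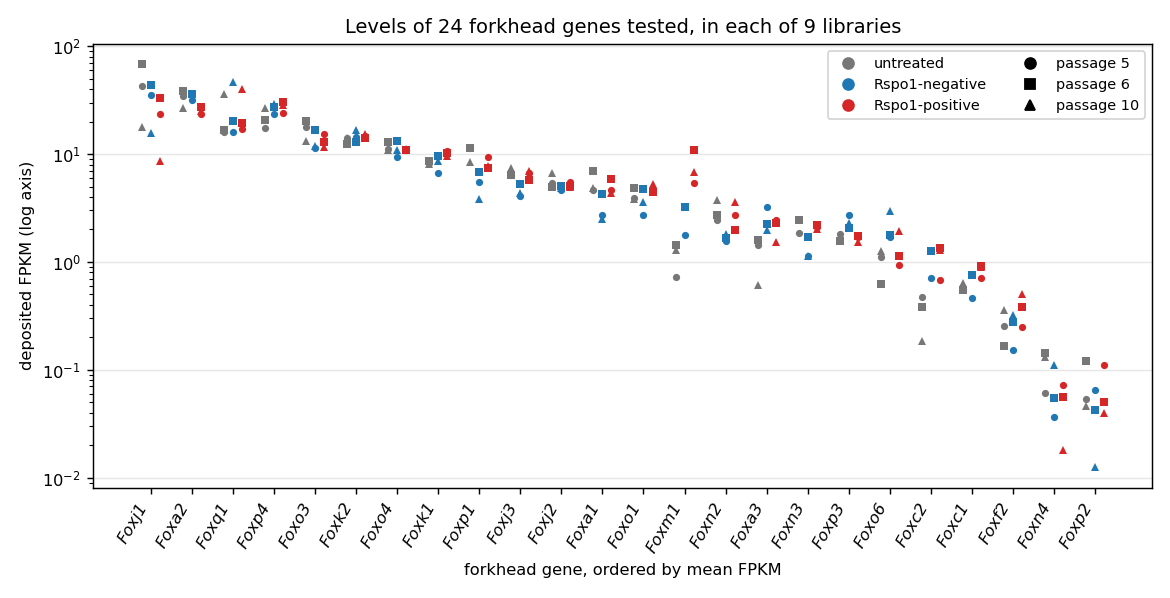
Deposited FPKM on a log axis of 24 of the 25 forkhead genes tested, 1 point per library, coloured by group and shaped by passage, ordered by the mean of 9 libraries. Foxj1 spans 8.66 to 68.2 FPKM, and the 3 Foxm1 points of Rspo1-positive cells lie above all other Foxm1 points.

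Foxm1 (chr6:128362967-128376146, plus strand) was the forkhead gene that separated the 3 groups. At passages 5, 6 and 10 it had 3.42, 6.86 and 6.13 CPM in untreated cells, 7.96, 15.02 and 14.99 CPM in Rspo1-negative cells and 25.4, 51.2 and 32.7 CPM in Rspo1-positive cells. No library of one group overlapped with another group, and at each passage the order was untreated, Rspo1-negative, Rspo1-positive. The counts behind these values were 111 to 213 in untreated and 1033 to 1519 in Rspo1-positive libraries. In such bulk samples a larger share of dividing cells and more Foxm1 RNA per cell cannot be told apart.

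Groups were compared by the quasi-likelihood F-test of edgeR, p-values were adjusted over 17011 genes by Benjamini-Hochberg, and a gene is called changed at an adjusted p under 0.05. Foxm1 in Rspo1-positive cells exceeded that of untreated cells by 2.74 on the log2 scale (SE 0.36, adjusted p = 0.00187). It exceeded the level of the Rspo1-negative gate by 1.53 (SE 0.34, adjusted p = 0.0112). The Rspo1-negative gate in turn stood 1.21 above untreated cells (SE 0.35, adjusted p = 0.0322). The first 2 differences were called in every fit with 1 of the 9 libraries left out. The third was called in 5 of them and lost without untreated replicate 1 (0.96, adjusted p = 0.0967), untreated replicate 3, Rspo1-negative replicate 2 or Rspo1-negative replicate 3. With the GC and length offset it was 1.06 (adjusted p = 0.0714). A fit with passage as replicate block called it (1.21, adjusted p = 0.000368 by edgeR). Block and offset together called it as well (1.08, adjusted p = 0.0009 by edgeR). In the authors' deposited table the Foxm1 difference between Rspo1-positive and untreated cells was 2.74 (adjusted p = 7.31e-43).

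Among the 25 forkhead genes tested, 2 were called between Rspo1-positive and untreated cells, where 5.21% of all genes tested were called (3.07% higher). Both were higher: Foxm1 and Foxc2, a factor of mesenchymal and lymphatic development. Between the Rspo1-positive and Rspo1-negative gates 5 forkhead genes were called, all higher, against 24.3% of all genes (14.6% higher). In Rspo1-negative against untreated cells 7 were called, 2 higher and 5 lower, against 21.9% of all genes (8% higher and 13.9% lower). In the same order, the libraries of both groups did not overlap for 5, 10 and 10 of the 25, beside 23.2%, 45.2% and 36.3% of all genes. The members' shares of 8%, 20% and 28% were thus near the background, and no more is read from these counts. The median log2 difference of the 25 genes was -0.06, 0.08 and -0.12 in these comparisons, and that of all genes -0.01, 0.03 and -0.02. The untreated libraries serve 2 of the comparisons and the Rspo1 libraries likewise, so calls in one comparison are not independent of those in the others. Libraries of equal passage deviated together, and the fit with passage as replicate block called 4, 10 and 11 forkhead genes, against 13.2%, 38.9% and 35.5% of all genes. The authors' deposited tables list 22 forkhead genes, of which 3, 11 and 9 have an adjusted p under 0.05, beside 13.85%, 44.06% and 27.01% of the 15807 genes listed there.

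**Figure D2:**
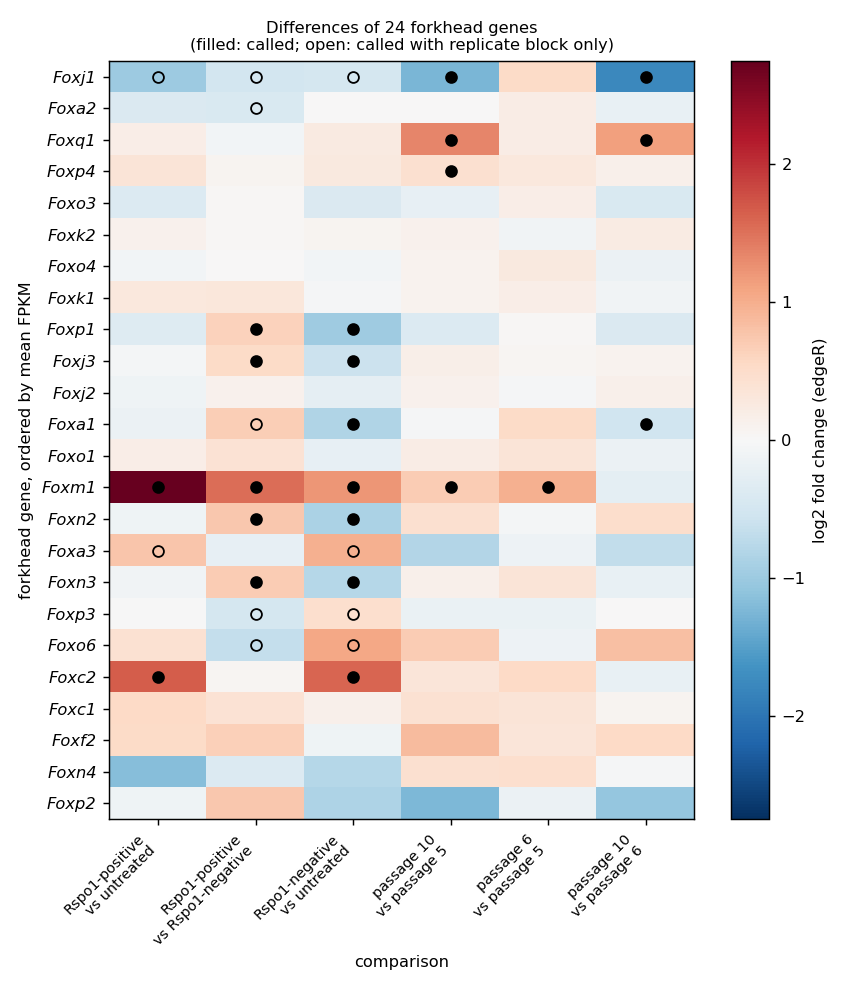
Log2 fold changes (edgeR) of 24 of the 25 forkhead genes tested in 3 group comparisons and 3 passage comparisons, in red where higher in the first-named set and blue where lower. Filled circles mark called genes and open circles genes called only with the replicate block; Foxm1 carries 5 filled circles and Foxj1 2.

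The FOXM1 list holds 29 genes, all tested. They are genes known as FOXM1 targets in G2 and M phase, Mybl2 and the subunits of MuvB, the complex with which FOXM1 acts. The list was drawn up with earlier results of these data known. In Rspo1-positive against untreated cells 24 of the 29 were called higher and none lower, with a median of 2.72 beside -0.01 for all genes. The share of all genes called higher there was 3.07%. Aurkb, a kinase of chromosome segregation, rose from 2.59 ± 1.84 to 24.7 ± 6.58 CPM (SD, n = 3; log2 difference 3.26, adjusted p = 0.00234 by edgeR). Cenpf, a kinetochore protein, rose by 3.23 and Bub1, a spindle checkpoint kinase, by 3.18. In Rspo1-positive against Rspo1-negative cells 14 were called higher and none lower, with a median of 1.18. With the replicate block 26 were called higher, and with the GC offset 5 higher and 1 lower. Among all genes 14.6% were called higher there, and in either direction 38.9% with the block and 9.53% with the offset. Cenpe, a kinetochore motor, rose by 3.16 and Cenpf by 3.11.

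In Rspo1-negative against untreated cells the FOXM1 list had 7 genes called higher and 1 lower, with a median of 1.21. With the replicate block it had 22 and 1, and with the GC and length offset 7 and none. Among all genes 8% were called higher and 13.9% lower, and in either direction 35.5% with the block and 10.3% with the offset. The rises were led by Aurkb (1.89), Birc5, a subunit of the same kinase complex (1.75), and Cdc20, an activator of the anaphase complex (1.71). The gene that fell was Lin54, the DNA-binding subunit of MuvB (-0.80, adjusted p = 0.00601 by edgeR), which is a partner and no mitotic target. With the offset Lin54 was not called lower. Cenpf stood at 6.40 ± 3.63 CPM in untreated and 7.03 ± 4.77 CPM in Rspo1-negative cells (SD, n = 3).

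**Figure D3:**
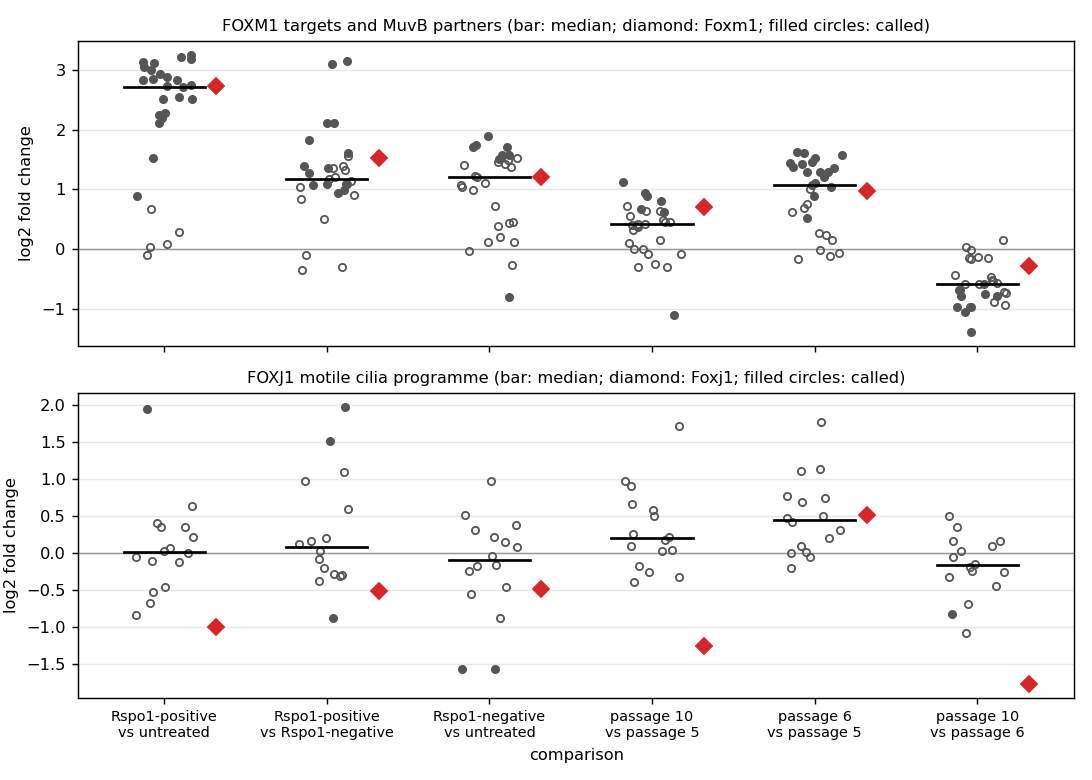
Log2 fold changes of the FOXM1 list (29 genes, upper plot) and of the tested genes of the FOXJ1 list (16 genes, lower plot) in the 6 comparisons, with the median as a bar and Foxm1 or Foxj1 as a red diamond; filled circles are called genes. The Foxm1 diamond lies near the median of its list in the 3 group comparisons, and the Foxj1 diamond lies below every called fall of its list for passage 10 against passage 6.

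Foxj1 (chr11:116330704-116335399, minus strand) had its lowest values at passage 10 in each group. At passages 5, 6 and 10 it had 114.8, 182.2 and 47.95 CPM in untreated, 89.4, 115.3 and 41.8 CPM in Rspo1-negative and 61.9, 87.8 and 23.4 CPM in Rspo1-positive cells. All 3 passage 10 libraries lay below all 6 others, and at every passage the order of the groups was untreated, Rspo1-negative, Rspo1-positive. Passage comparisons used edgeR's test in a fit of group and passage. Foxj1 was lower at passage 10 than at passage 5 by 1.25 on the log2 scale (log2 fold change -1.25, SE 0.12, adjusted p = 0.000394) and than at passage 6 (log2 fold change -1.77, SE 0.13, adjusted p = 0.000386). Both calls held in all 9 fits with 1 library left out. Each passage gave 1 library to each group, so passage number and the particular culture cannot be told apart.

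Between groups Foxj1 was called by edgeR with passage in the fit and not without it. Without the block Rspo1-positive and untreated cells differed by -0.99 (SE 0.54, adjusted p = 0.396 by edgeR). With the replicate block it was -0.99 (adjusted p = 0.000301), and within passages 5, 6 and 10 it was -0.89, -1.05 and -1.03. Rspo1-positive against Rspo1-negative cells gave -0.51 (adjusted p = 0.525) without and -0.59 (adjusted p = 0.00416) with the block by edgeR. Block and GC offset together ended that call (-0.21, adjusted p = 0.189). Rspo1-negative against untreated cells gave -0.48 (adjusted p = 0.562) without and -0.41 (adjusted p = 0.025) with the block by edgeR, and -0.81 (adjusted p = 0.00114) with block and offset. In the authors' deposited tables, whose design is not given in the sources used here, the 3 Foxj1 differences in this order were -0.99, -0.60 and -0.39 (adjusted p = 1.8e-11, 6.07e-05 and 0.069).

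The motile cilia programme that FOXJ1 is known to drive was mostly at low counts. Of 29 regulators and axoneme genes 16 were tested. In no comparison were more than 3 of the 16 called without the replicate block, and with it 4 were called in each group comparison. Without the block 5.21% of all genes were called for Rspo1-positive against untreated cells, 24.3% between the gates and 21.9% for Rspo1-negative against untreated cells. With it these shares were 13.2%, 38.9% and 35.5%. At passage 10 against passage 5, where Foxj1 fell, none of the 16 was called and their median was 0.20. Among all genes 9.07% were called there, and 8.45% at passage 10 against passage 6. At passage 10 against passage 6 only Rsph1, a radial spoke protein, was called, from 6.74 ± 1.69 to 3.78 ± 0.741 CPM (SD, n = 3; -0.82, adjusted p = 0.0136 by edgeR). In the group comparisons the called genes of the list included Rfx3, a ciliary transcription factor, and Ccdc39, an axoneme ruler protein. Against untreated cells both were lower in the Rspo1-negative gate (-1.57 each), and the Rspo1-positive gate exceeded it (1.51 and 1.96). Rsph9, a radial spoke protein, went the other way between the gates, from 26.3 ± 2.89 CPM in the Rspo1-negative to 14.2 ± 1.37 CPM in the Rspo1-positive gate (SD, n = 3; -0.89, adjusted p = 0.0167 by edgeR). With the GC and length offset 2 genes of the list were called higher and none lower in Rspo1-negative against untreated cells. Between the gates the offset left 1 called, lower. The shares of all genes called with the offset were 10.3% and 9.53% in these 2 comparisons.

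The 3 FOXA genes, pioneer factors of the liver, did not move together. Foxa2 was the most abundant, with 74.4, 84.1 and 58.4 CPM at passages 5, 6 and 10 in untreated, 65.0, 77.5 and 76.5 CPM in Rspo1-negative and 50.8, 58.2 and 55.3 CPM in Rspo1-positive cells. Rspo1-positive libraries all lay below the others. The difference from Rspo1-negative cells was -0.41 (adjusted p = 0.0671 by edgeR). It was called with the replicate block (adjusted p = 0.0287) and was -0.03 with block and GC offset together.

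Foxa1 had 14.9, 22.7 and 15.7 CPM in untreated, 8.49, 13.5 and 7.96 CPM in Rspo1-negative and 14.97, 18.7 and 14.3 CPM in Rspo1-positive cells. The Rspo1-negative libraries were the lowest 3, and Foxa1 was lower there than in untreated cells (-0.83, SE 0.25, adjusted p = 0.0355 by edgeR). The GC and length offset kept this call (-1.11, adjusted p = 0.024) and added that of Rspo1-positive against Rspo1-negative cells (0.93, adjusted p = 0.046; 0.68 and adjusted p = 0.0687 without it). The difference between the gates was also called with the replicate block (0.71, adjusted p = 0.0032 by edgeR). Block and offset together gave 0.97 (adjusted p = 0.0013 by edgeR). Leaving out 1 library ended the first call, against untreated cells, in 5 of 9 fits, with an adjusted p of up to 0.133 without Rspo1-negative replicate 3. Foxa1 was also lower at passage 10 than at passage 6 (-0.56, adjusted p = 0.0324 by edgeR), a call that 1 of the 9 fits kept.

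Foxa3, the FOXA gene most tied to hepatocytes, had 2.99, 3.34 and 1.27 CPM in untreated, 6.33, 4.57 and 4.07 CPM in Rspo1-negative and 5.02, 4.66 and 3.25 CPM in Rspo1-positive cells. All Rspo1-negative libraries lay above the untreated ones. The difference was 0.98 (adjusted p = 0.0736 by edgeR) and was called with the replicate block (1.04, adjusted p = 0.00695). Rspo1-positive against untreated cells gave 0.77 (adjusted p = 0.303), called with the block as well (0.82, adjusted p = 0.0431 by edgeR).

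FOXA partners and known liver or duct targets are 22 genes, of which 18 were tested. In Rspo1-positive against untreated cells 1 was called higher and 1 lower (2 and 6 with the replicate block), against the 5.21% of all genes (13.2% with the block). The rise was Sox9, a duct transcription factor, from 56.4 ± 20.8 to 139.7 ± 39.1 CPM, and the fall was Tff3, a secreted mucosal peptide, from 563.1 ± 112 to 32.5 ± 23.1 CPM (SD, n = 3). In Rspo1-negative against untreated cells 1 was higher and 6 lower (4 and 7 with the replicate block), beside 21.9% of all genes (35.5% with the block), among them Tff3 (-2.51), Onecut2, a hepatobiliary transcription factor (-2.34), and Hnf4g (-1.69). In Rspo1-positive against Rspo1-negative cells 3 were higher and 1 lower (4 and 5 with the replicate block, none with the GC and length offset). Of all genes 24.3% were called there (38.9% with the block and 9.53% with the offset). Onecut2 was higher by 1.54.

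Foxc2 was the second forkhead gene called higher in both Rspo1 groups than in untreated cells, from few counts. It had 1.29, 1.07 and 0.518 CPM at passages 5, 6 and 10 in untreated, 1.86, 3.46 and 3.47 CPM in Rspo1-negative and 1.87, 3.64 and 3.61 CPM in Rspo1-positive cells, from 18 to 129 counts per library. At each passage both gates had nearly the same value and exceeded the untreated library. The difference from untreated was 1.66 in Rspo1-positive (SE 0.42, adjusted p = 0.0467 by edgeR) and 1.60 in Rspo1-negative cells (SE 0.42, adjusted p = 0.0225). The first call was kept in 2 and the second in 6 of 9 fits with 1 library left out. Without Rspo1-positive replicate 2 the first had an adjusted p of 0.182. With the GC and length offset the second was 1.18 (adjusted p = 0.088 by edgeR). The replicate block called both differences (1.60 and 1.55, adjusted p = 0.0169 and 0.0099 by edgeR). Block and offset together also called both (1.56 and 1.15, adjusted p = 0.0134 and 0.0423 by edgeR). Between the gates the values differed by 0.08 or less on the log2 scale within each passage.

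Foxc2 lies in a cluster on chromosome 8 between Foxf1, 28.0 kb away, and Foxl1, 9.04 kb away. These neighbours, both known from mesenchyme of the gut and liver, had 5 and 23 counts over all 9 libraries while Foxc2 had 641. Col1a1, the mesenchymal marker with the most counts, had 2 to 24 counts per library.

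Foxq1 (chr13:31556134-31560976, plus strand), an epithelial forkhead gene known as responsive to Wnt in colon, was called between passages and not between groups. At passages 5, 6 and 10 it had 77.9, 82.5 and 176.5 CPM in untreated, 75.4, 98.9 and 225.0 CPM in Rspo1-negative and 83.3, 94.3 and 202.1 CPM in Rspo1-positive cells. All 3 passage 10 libraries exceeded the 6 others, and the groups overlapped. Foxq1 was higher at passage 10 than at passage 5 by 1.34 on the log2 scale (SE 0.12, adjusted p = 0.000305 by edgeR) and than at passage 6 by 1.13 (SE 0.12, adjusted p = 0.000652). Both were called in all 9 fits with 1 library left out. None of the 3 group comparisons called it.

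The Foxq1 values are uncertain, because 66.1% of its exon bases are shared with an antisense gene, A530084C06Rik, and no source used here states whether counting used the strand. That gene had 1122 to 3287 counts per library, and it rose too at passage 10 against passage 5 (1.27, adjusted p = 0.000305 by edgeR). Foxq1 is followed on chromosome 13 by Foxf2 at 64.8 kb and Foxc1 at a further 175.2 kb. Foxf2 had 12 to 44 counts per library and Foxc1 97 to 195. For passage 10 against passage 5 Foxf2 gave 0.88 (adjusted p = 0.153) and Foxc1 0.43 (adjusted p = 0.199 by edgeR), neither called; these 2 neighbours were chosen after their values were seen.

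**Figure D4:**
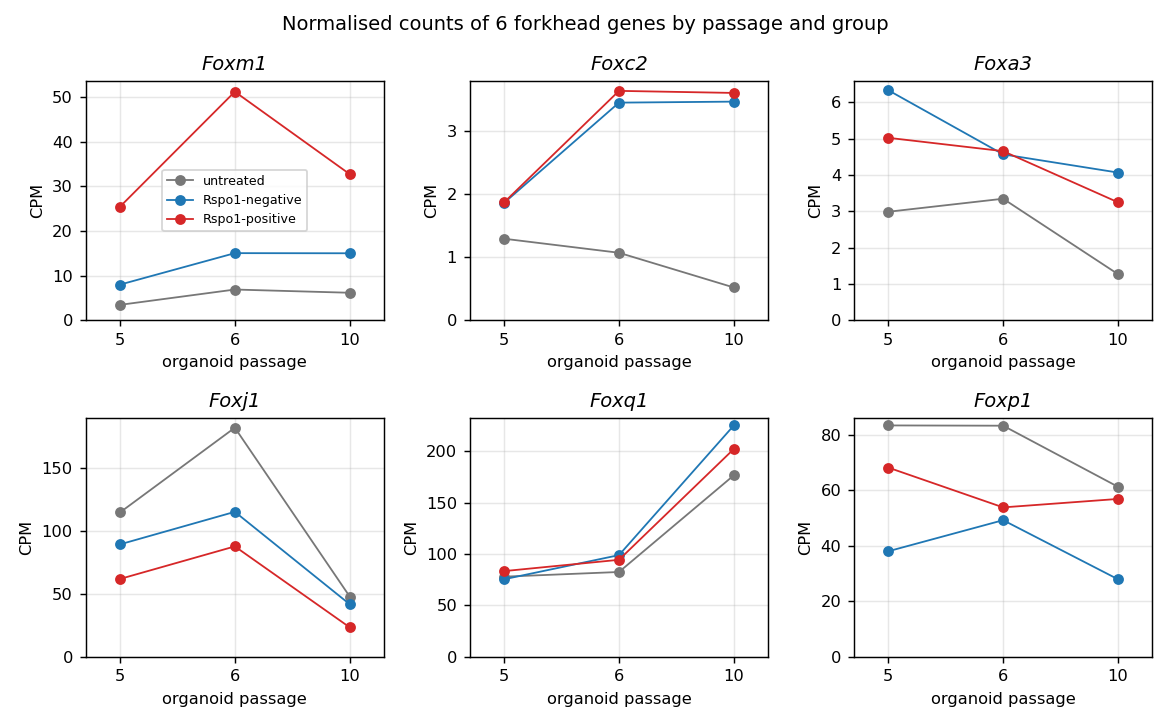
Normalised counts (CPM, linear axes from 0) of 6 forkhead genes by passage, 1 point per library and 1 line per group. Foxm1 separates the 3 groups at each passage, Foxc2 and Foxa3 have the untreated line lowest, and Foxj1 and Foxq1 have their lowest and highest values at passage 10.

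At passage 10 against passage 5, 4 of the 25 forkhead genes were called (Foxj1 lower, and Foxq1, Foxm1 and Foxp4 higher), beside 9.07% of all genes (4.5% lower and 4.57% higher). At passage 6 against passage 5 it was Foxm1 alone, beside 2.49% of all genes, and at passage 10 against passage 6 it was Foxj1, Foxa1 and Foxq1, beside 8.45%. Foxm1 was higher at passage 6 than at passage 5 by 0.98 (SE 0.16, adjusted p = 0.0093 by edgeR), and the difference was 0.92 to 1.01 within each of the 3 groups. This call was kept in 6 of 9 fits with 1 library left out, with an adjusted p of up to 0.0817 without Rspo1-negative replicate 1. At passage 10 against passage 5 it was 0.70 (SE 0.16, adjusted p = 0.0211), called in 4 of 9 fits with 1 library left out. The FOXM1 list had 18 genes called higher and none lower at passage 6 against passage 5 (median 1.07), and 10 called lower and none higher at passage 10 against passage 6 (median -0.59). At passage 10 against passage 5 it had 6 higher and 1 lower (median 0.42), with Ccnb2, a mitotic cyclin, at 1.13 and Gtse1 at -1.11. Cenpa, the centromeric histone, rose by 1.64 between passages 5 and 6, and Gtse1, a G2 and S phase protein, fell by 1.39 between passages 6 and 10.

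Foxp4 had 70.1, 84.2 and 109.5 CPM at passages 5, 6 and 10 in untreated, 90.6, 108.8 and 118.2 CPM in Rspo1-negative and 96.5, 122.7 and 116.8 CPM in Rspo1-positive cells. Passage 10 lay above passage 5 in every group (0.44, adjusted p = 0.0445 by edgeR). Only 1 of the 9 fits with 1 library left out kept this call, and with the GC and length offset it was 0.14 (adjusted p = 0.422). The offset added calls for passage 10 against passage 5 in Foxa3 (-0.80, adjusted p = 0.0378 by edgeR) and Foxn2 (0.52, adjusted p = 0.0366). Against passage 6 it added Foxn2 (0.54, adjusted p = 0.0323 by edgeR) and Foxo6 (0.84, adjusted p = 0.0201).

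Of the FOXO genes, effectors of insulin signalling, Foxo1, Foxo3 and Foxo4 were called in none of the 6 comparisons without the offset. With block and offset Foxo4 was lower in Rspo1-negative against untreated cells (-0.38, adjusted p = 0.0361 by edgeR). Foxo3 had 123.0, 141.9 and 91.8 CPM in untreated, 74.8, 113.9 and 82.0 CPM in Rspo1-negative and 105.4, 88.8 and 82.3 CPM in Rspo1-positive cells. Foxo4 stayed between 29.0 and 41.9 CPM in all 9 libraries, and Foxo1 between 23.1 and 46.7 CPM. Their libraries overlapped between all groups. Foxo6, the FOXO gene known from brain, had 2.95, 1.67 and 3.34 CPM in untreated, 4.29, 4.61 and 7.83 CPM in Rspo1-negative and 2.46, 3.00 and 5.21 CPM in Rspo1-positive cells. With the replicate block it rose from untreated to Rspo1-negative cells (1.05, adjusted p = 0.00655 by edgeR; 0.0669 without the block) and was lower in the Rspo1-positive gate than in the Rspo1-negative one (-0.66, adjusted p = 0.0427; 0.231 without). Block and offset together gave 0.61 (adjusted p = 0.0426 by edgeR) for the first and ended the second call (-0.43, adjusted p = 0.122).

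FOXO targets and regulators of the AKT branch are 30 genes, of which 26 were tested. In Rspo1-negative against untreated cells 1 was called higher and 11 lower (3 and 16 with the replicate block, 1 and 5 with the offset). Of all genes 8% were higher and 13.9% lower, and 35.5% were called with the block and 10.3% with the offset. Among the falls were Sirt1, a deacetylase of FOXO proteins (-1.05), and Sesn3, a sestrin (-0.99). Akt2 was the gene that rose (0.43, adjusted p = 0.0322 by edgeR). Between the gates 5 were higher and 3 lower (8 and 7 with the block, none and 3 with the offset). Of all genes 24.3% were called there, 38.9% with the block and 9.53% with the offset. In Rspo1-positive against untreated cells only Cited2, a transcriptional coregulator, was called, from 69.0 ± 14.8 to 35.2 ± 7.08 CPM (SD, n = 3). Its log2 difference was -0.97 (adjusted p = 0.015 by edgeR), where 5.21% of all genes were called. With the replicate block 9 of the 26 were lower and none higher, beside 13.2% of all genes.

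Foxp1, Foxn2, Foxn3 and Foxj3 formed the rest of the calls between groups, and all 4 were lower in Rspo1-negative cells than in both other groups. Foxp1, a repressor of the FOXP branch, had 83.3, 83.2 and 61.2 CPM in untreated, 38.0, 49.2 and 27.9 CPM in Rspo1-negative and 68.1, 53.8 and 56.8 CPM in Rspo1-positive cells. Its Rspo1-negative libraries were the lowest 3, with differences of -0.98 from untreated (SE 0.21, adjusted p = 0.00926 by edgeR) and 0.64 for Rspo1-positive against Rspo1-negative cells (adjusted p = 0.047). Foxn2 ranged from 7.64 to 9.27 CPM in Rspo1-negative cells and from 9.99 to 19.2 CPM in the other 6 libraries. Foxn3, a checkpoint-linked repressor, ranged from 8.52 to 13.2 CPM in Rspo1-negative cells and from 14.6 to 19.3 CPM elsewhere. Foxj3 ranged from 19.1 to 25.1 CPM against 27.4 to 35.95 CPM elsewhere. Against untreated cells the 3 genes gave -0.86, -0.79 and -0.59, and between the gates 0.75, 0.69 and 0.53, all called. With 1 library left out, the Foxp1 fall against untreated cells was called in 9 of 9 fits, and those of Foxn2, Foxn3 and Foxj3 in 5, 6 and 6. The differences between the gates were called in 3 (Foxp1), 2 (Foxn2), 4 (Foxn3) and 5 (Foxj3) of 9 fits, with adjusted p of up to 0.163, 0.187, 0.108 and 0.102 by edgeR.

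The transcripts of these 4 genes are AT-rich, at 41.2% (Foxn2), 44.9% (Foxp1), 45.8% (Foxn3) and 46.2% (Foxj3) GC. With Foxp2 and Foxo1 they are the 6 tested members under 50% GC. The 6 had a median log2 difference of -0.82 between Rspo1-negative and untreated cells, and the other 19 members 0.01. Over all genes the medians were -0.33 under and 0.20 above 50% GC. After the GC and length offset none of the 4 was called: Foxp1 gave -0.34 (adjusted p = 0.243 by edgeR), Foxn3 -0.27, Foxn2 -0.18 and Foxj3 -0.10. Between the gates the offset left -0.10, 0.09, -0.01 and -0.03 for Foxp1, Foxn3, Foxn2 and Foxj3. Block and offset together called Foxp1 lower in Rspo1-positive than in untreated cells (-0.42, adjusted p = 0.0319 by edgeR) and Foxj2, a relative of Foxj3, lower in Rspo1-negative than in untreated cells (-0.40, adjusted p = 0.0265). With the offset 2, 2 and 1 forkhead genes were called, in the order of comparisons used above, beside 6.48%, 9.53% and 10.3% of all genes.

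**Figure D5:**
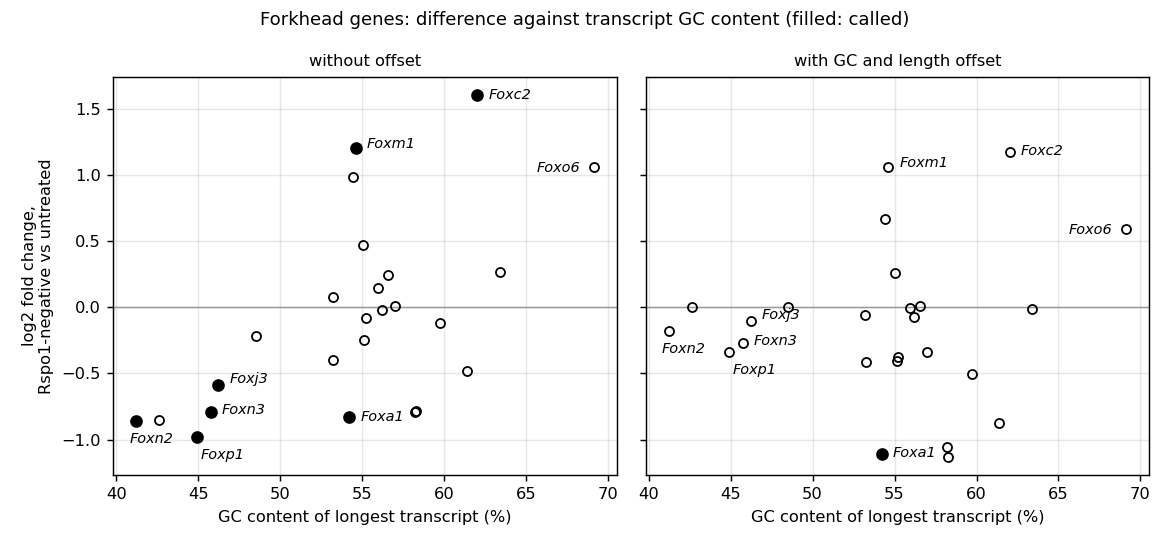
Log2 fold change (edgeR) of the 25 forkhead genes in Rspo1-negative against untreated cells, plotted against the GC content of each gene's longest transcript in percent, without (left) and with (right) the offset for GC content and length; filled points are called. Without the offset the 4 called genes under 50% GC lie between -0.98 and -0.59, and with it only Foxa1 is called.

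Foxp3, the factor of regulatory T cells, was measured in every library, at 7.08, 6.15 and 6.19 CPM in untreated, 10.1, 7.94 and 8.81 CPM in Rspo1-negative and 6.57, 6.65 and 6.05 CPM in Rspo1-positive cells. It had 184 to 381 counts per library where Cd3e and Ptprc had at most 5. Its Rspo1-negative libraries were the highest 3, called with the replicate block against untreated (0.47, adjusted p = 0.0363 by edgeR; 0.0826 without) and against Rspo1-positive cells (-0.48, adjusted p = 0.031; 0.0712 without). Block and offset together ended both calls (0.25 and -0.30, adjusted p = 0.241 and 0.162 by edgeR). Of the Foxp3 exon bases 31.5% are shared with other genes, 4 in all. Flicr, the one that shares most, lies on the same strand and had 7 to 20 counts per library.

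The FOXK genes, repressors that act with SIN3A and BAP1 complexes, were called in no comparison without the offset. With block and offset Foxk1 was higher in the Rspo1-positive than the Rspo1-negative gate (0.33, adjusted p = 0.037 by edgeR). Foxk2 had 63.8 to 83.9 CPM and Foxk1 48.5 to 79.3 CPM over the 9 libraries. Of 15 known co-regulators of FOXP and FOXK proteins 12 were tested. In Rspo1-negative against untreated cells 2 were called higher and 3 lower (3 and 5 with the replicate block, none with the GC and length offset), beside 21.9% of all genes (35.5% and 10.3%). The falls were Gatad2b, a subunit of the NuRD complex (-0.85), Nfatc3 (-0.83) and Hdac2 (-0.40), and the rises were Bap1 (0.45) and Mta1 (0.38). In Rspo1-positive against Rspo1-negative cells 4 were higher and none lower (6 and none with the replicate block, none with the offset). Of all genes 24.3% were called there (38.9% with the block and 9.53% with the offset). Between passages none of the 12 was called. In Rspo1-positive against untreated cells none was called, and 1 was higher with the replicate block.

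RefSeq promoter windows of 300 bases around a start were at hand on GRCm38.p6 for 20 of the 34 genes, in 25 promoters. Foxm1, Foxj1, Foxq1, Foxc2 and Foxn2 were not among them. On both strands the forkhead core TGTTTAC was in 1 of the 25 (Foxa1), beside 3.65% of all 32851 promoters. The TCF and LEF core CTTTGAT was in 1 (Foxa2), beside 3.73%. The TTTGAA element of cell cycle promoters was in 3 (Foxn3, Foxp1 and Foxp3), beside 17.9%. A match of letters is no evidence of binding.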

How the data were processed

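The deposited files of the 9 libraries hold raw counts per gene and FPKM values that the authors scaled between libraries, per the file headers. Each FPKM column was a constant multiple of count per length, and that constant followed the inverse of a median-of-ratios size factor. The submitters' processing notes name Trimmomatic 0.35, FastQC 0.11.2, STAR 2.5.1b, featureCounts, DESeq2 and GRCm38; the strand setting was not given in the sources used here. The authors also deposited 3 comparison tables with a log2 fold change and its error, a test score (stat), and p-values, raw and adjusted, per the file headers.

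Counts were tested with edgeR 4.0.16 (R 4.3.3; quasi-likelihood F-test, TMM). The filter on low counts was filterByExpr with the 3 groups, a minimum count of 10 and a minimum total of 15, and all 9 libraries entered each fit. The standard error is the size of the log2 difference divided by the square root of F. Group comparisons used a fit of group alone, and passage comparisons a fit of group and passage. The edgeR p-values were adjusted over all 17011 genes.

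Replicate numbers stand for passages, per the labels. After removal of group means, log2 CPM correlated at 0.123 to 0.573 in the 9 same-passage pairs of libraries and at -0.476 to 0.0826 in the 18 other pairs, so the numbers pair the libraries. Values with this block are given where they change a call or a count.

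The offset models log counts by splines (5 degrees of freedom) of transcript GC content and length from GENCODE M21. The scripts were first tested on simulated data. Named genes are the forkhead genes called in any comparison with or without block, Foxj1, Foxq1 and Foxm1, the 8 with the highest mean FPKM, and up to 3 called rises and falls per list with a mean log2 CPM above 2. Values of some genes are not reported here. The members and lists were chosen with earlier results of these data known. Figures were drawn with matplotlib 3.10.9 in Python 3.11.15, and DESeq2 1.42.0 served as an alternative.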

Additional observations from a re-analysis of the deposited data

Results flagged for a closer look

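In 5 forkhead genes the level in Rspo1-treated cells differed between the sort gates, by the direct test of Rspo1-positive against Rspo1-negative cells. That test called 24.3% of all genes. Without tdTomato-positive untreated cells, a differing response to Rspo1 and a difference between the gates without Rspo1 cannot be told apart. The log2 difference between the gates was 1.53 for Foxm1, 0.53 for Foxj3, 0.75 for Foxn2, 0.69 for Foxn3 and 0.64 for Foxp1 (edgeR, adjusted p = 0.0112, 0.0297, 0.0491, 0.0308 and 0.047). Foxm1 was higher than in untreated cells in both gates. The other 4 were lower in the tdTomato-negative gate, and their transcripts have 41.2% to 46.2% GC. With the GC and length offset the Foxm1 difference was 1.64 (adjusted p = 0.0169 by edgeR) and those of the other 4 lay between -0.10 and 0.09.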

How the results depend on the processing

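The number of forkhead genes called depended on the setting. The main counts were 2 (Rspo1-positive against untreated), 5 (between the gates) and 7 (Rspo1-negative against untreated), and the values below keep this order. The replicate block gave 4, 10 and 11, block and GC and length offset together 5, 3 and 9, the offset alone 2, 2 and 1, and the DESeq2 Wald test 2, 8 and 10. Among all genes the main fit called 5.21%, 24.3% and 21.9%, the block 13.2%, 38.9% and 35.5%, and the offset alone 6.48%, 9.53% and 10.3%. For the other settings of the group comparisons this share is not given here, so their counts are no result about forkhead genes. DESeq2 size factors gave 3 in the second comparison. Fits of only the 6 libraries compared gave 1 in the first and 4 in the third. Leaving out 1 library gave 1 to 2, 1 to 7 and 1 to 8. For passage 10 against 5, 6 against 5 and 10 against 6 the main counts were 4, 1 and 3, and leaving out 1 library gave 2 to 6, 0 to 2 and 2 to 3. Passage alone, without group, gave 1, 0 and 0 by edgeR, where 2, 0 and 2 forkhead genes had an unadjusted p under 0.05 and 17, 0 and 8 of all genes were called (1700, 790 and 1641 unadjusted), against 1543, 423 and 1438 with group; DESeq2 with group gave 5, 3 and 4. Only the 6 libraries compared gave 8 for passage 10 against 5. For 6 against 5, upper-quartile scaling and no filter gave 2 each. For 10 against 6, no filter gave 6 and the offset 5. Among single genes, 400 alternative values kept direction and call, 110 lost the call, 36 gained it and 7 changed sign. The sign changes in Rspo1-positive against Rspo1-negative cells came with the offset, without and with the block: Foxj3 -0.029 and -0.032, Foxn2 -0.0093 and -0.023, and Foxp1 -0.097 and -0.08. Foxj1 in Rspo1-negative against untreated cells ranged from -0.85 without untreated replicate 3 to 0.015 without untreated replicate 2. Of the calls of all genes in Rspo1-negative against untreated cells 36.5% were higher, and 49.5% with upper-quartile scaling; between the gates these were 59.8%, and 44.5% with the offset. Of the 8 highest genes by FPKM, 7 were also highest by CPM. The causes of these shifts were not tested. Depth limits the 9 untested genes and Foxc2, Foxf2, Foxn4 and Foxp2, which had down to 18, 12, 2 and 2 counts in a library.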

Other observations

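Foxc1 was called in no comparison, with or without block or offset, and was chosen after its values were seen. Foxk1 was called in none without the offset. Foxc1, known from mesenchyme and the eye, had 4.21 to 5.46 CPM in Rspo1-positive and 3.24 to 3.77 CPM in untreated cells, without overlap, and the difference of 0.54 was not called (adjusted p = 0.309 by edgeR). Foxk1 also differed without overlap between Rspo1-positive cells (74.1 to 79.3 CPM) and untreated cells (61.6 to 64.7 CPM), with a difference of 0.29 (adjusted p = 0.340 by edgeR).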
